A study of Sus scrofa with 9 samples.

Results

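The natriuretic peptide system was read from 8 genes chosen by name: the ligands NPPA, NPPB and NPPC, the receptors NPR1, NPR2 and NPR3, and the proteases CORIN and FURIN. Of these, 7 were listed among the 25149 genes of the expression table, and NPR3 was not analysed here. NPPC stayed below 1 TPM in every heart. The test was limited to the 11782 genes that reached 1 TPM in 3 or more hearts, and 6 of the 8 were among them. TPM are read counts divided by gene length and set to the same sum in each heart. Levels can thus be compared between genes, but between hearts a level also depends on how much of that sum other genes take.

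The tissue was myocardium of 9 female American Yorkshire pigs of 4 to 6 months, a model of donation after circulatory death (DCD), in which the heart is recovered after the circulation has stopped. All hearts went through 15 min of warm ischemia and, after cold storage, through 2 h of normothermic machine perfusion (NMP, a warm circuit outside the body). An apex biopsy frozen at the end of NMP gave the RNA. Group 1 (NRP + HOPE 24 h, pigs 27, 28 and 30) received 60 min of normothermic regional perfusion (NRP, warm circulation restored inside the donor) and then 24 h of hypothermic oxygenated perfusion (HOPE) at 8 °C. Group 2 (NRP + SCS 2 h, pigs 24, 25 and 29) received the same 60 min of NRP and 2 h of static cold storage (SCS) at 4 °C. Group 3 (No NRP + HOPE 2 h, pigs 31, 33 and 34) received 0 min of NRP and 2 h of HOPE at 8 °C. Method, duration and temperature of storage cannot be told apart between Groups 1 and 2. Nor can NRP, storage method and temperature between Groups 3 and 2, or NRP and storage duration between Groups 1 and 3. No heart without DCD and NMP was analysed here, so no level below is set against unperfused tissue. The groups are called HOPE 24 h, SCS 2 h and No NRP from here on. Each heart came from a separate pig, and the p-values measure the spread between animals.

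Atrial natriuretic peptide, encoded by NPPA, and B-type natriuretic peptide, encoded by NPPB, are hormones of heart muscle cells, released when the wall is stretched. CORIN cuts the NPPA precursor and FURIN is a general protease that cuts the NPPB precursor, although each can take part in the other step. Both hormones act on NPR1, a receptor that makes cyclic GMP, while NPPC encodes a paracrine relative made by vessel lining that acts on NPR2, and NPR3 removes the peptides. In the adult heart NPPA is mainly an atrial gene, and both ligand genes are known to be switched on in loaded or injured ventricle.

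The labels call the tissue cardiomyocytes, but a biopsy holds all cell types of the wall. The 6 of 10 cardiomyocyte markers listed summed to between 21350 and 41520 TPM per heart. Ventricular MYL3 lay between 4772 and 11123 TPM, whereas atrial MYL4 lay between 2.81 and 55.4 TPM and atrial SLN between 0 and 4.44 TPM, with SLN listed at 0 in pigs 28 and 33. Endothelial markers (8 of 9 listed, 301 to 717 TPM summed), fibroblast markers (6 of 8, 700 to 1210 TPM) and macrophage markers (4 of 6, 54.9 to 208 TPM) were all present. In such bulk tissue, fewer cells of a type and less RNA per cell cannot be told apart. The mitochondrially encoded share of TPM was 44.8% to 55.4% in 8 hearts and 38.2% in pig 30, which leaves more of the total to all other genes of that heart, and fitted differences of the members that moved by more than 1.5 times without it are given both ways.

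By median over the 9 hearts, FURIN had the highest level (93.0 TPM), followed by NPPA (68.7 TPM), NPR1 (15.3 TPM), NPPB (12.8 TPM), NPR2 (12.05 TPM) and CORIN (3.42 TPM). NPR1, NPPB and NPR2 overlapped widely and have no order beyond their spread. The ligands differed from the receptors and proteases mainly in how much they varied. NPPA ranged 17.7-fold and NPPB 30.1-fold from the lowest to the highest heart, against 5.28-fold for CORIN, 2.86-fold for NPR1, 2.61-fold for NPR2 and 2.42-fold for FURIN. Within groups, the SD of log2(TPM + 1) was 1.39 for NPPA and 1.36 for NPPB, which placed them at percentiles 99.1 and 99.0 of the spread of all tested genes. NPR1 and CORIN, at 0.56 each, lay at percentiles 77.3 and 76.4, and FURIN (0.39) and NPR2 (0.35) at percentiles 41.2 and 31.6.

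**Figure D1:**
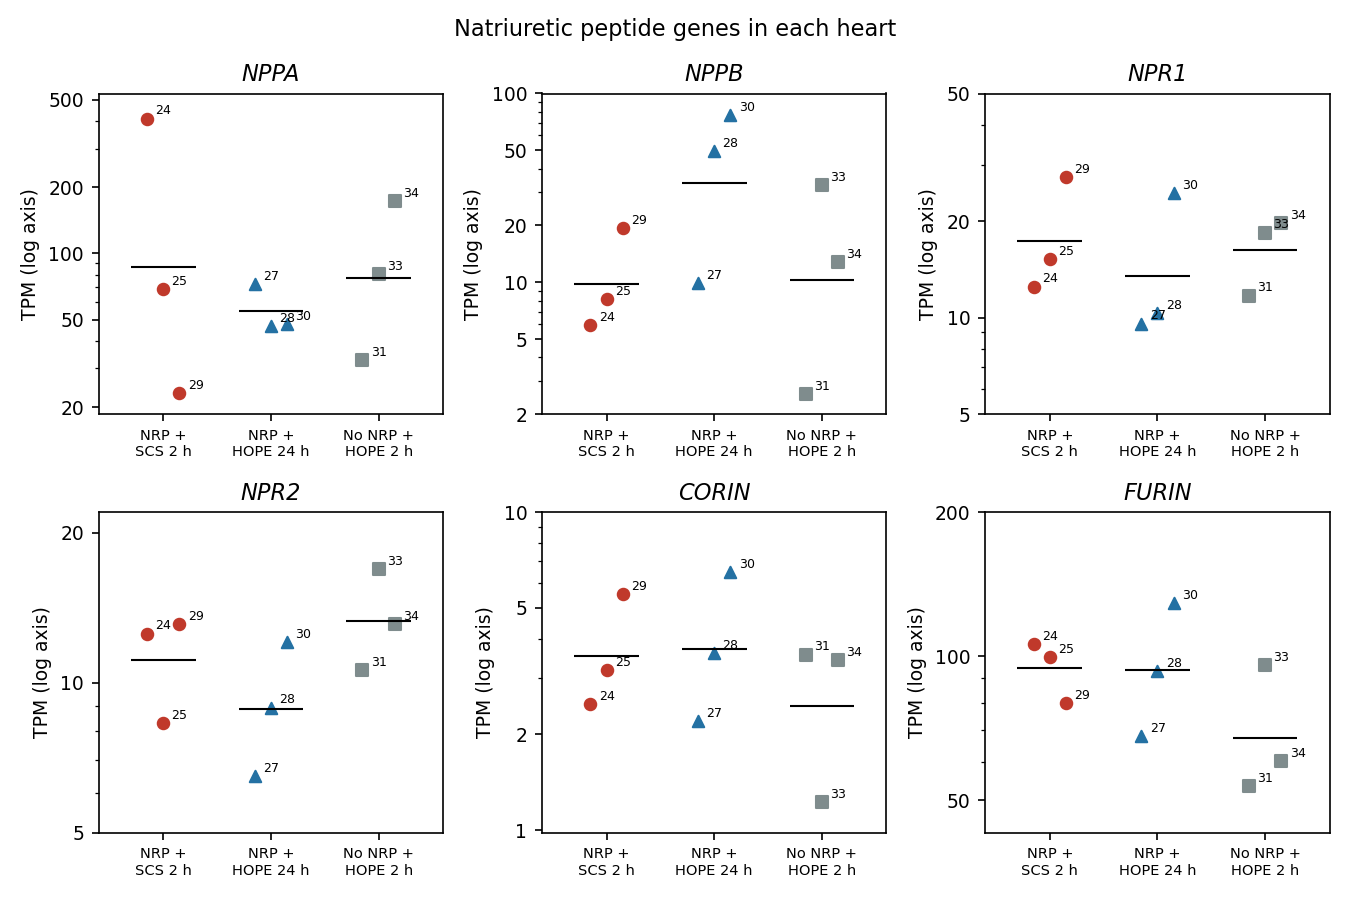
TPM of the 6 tested genes in each of the 9 hearts on log axes, 1 point per heart with its pig number, by group; horizontal lines are group means taken on the log scale (n = 3). NPPA reaches 411 TPM in pig 24 and NPPB 76.9 TPM in pig 30, and the hearts of every pair of groups overlap for all 6 genes.

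NPPA was highest in 1 heart of the SCS group. Its level was 411 TPM in pig 24, 68.7 TPM in pig 25 and 23.2 TPM in pig 29 of SCS 2 h. The HOPE 24 h hearts had 72.5, 46.9 and 47.7 TPM in pigs 27, 28 and 30. The No NRP hearts had 32.7, 80.9 and 173 TPM in pigs 31, 33 and 34. Both the highest and the lowest heart of the series were therefore in the SCS group, whose range covered those of the other groups, and the HOPE 24 h hearts were the most alike. In rank within its heart, NPPA was gene 180 in pig 24 and gene 2575 in pig 29.

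NPPB showed another order. Its level was 9.88, 49.4 and 76.9 TPM in pigs 27, 28 and 30 of HOPE 24 h. The SCS 2 h hearts had 5.96, 8.12 and 19.3 TPM in pigs 24, 25 and 29. The No NRP hearts had 2.56, 32.8 and 12.8 TPM in pigs 31, 33 and 34. The highest pair of hearts, pigs 30 and 28, had been stored for 24 h, but the third heart of that group, pig 27, lay below pig 29 of the SCS group and below pigs 33 and 34.

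NPPC, the vascular relative of the family, was close to the lower end of the table. It was listed at 0 in all 3 hearts of SCS 2 h and in pigs 31 and 33 of No NRP, with 0.37 TPM in pig 34. In HOPE 24 h it was above 0 in all 3 hearts, at 0.46, 0.17 and 0.24 TPM in pigs 27, 28 and 30. Read counts were not used here, so a value at 0 has no detection limit. With no filter on low values, limma gave NPPC a log2 fold change of 0.36 for HOPE 24 h over SCS 2 h (standard error 0.14, unadjusted p = 0.0275, adjusted p = 0.966 over 17146 genes). In that comparison 4.98% of all genes had an unadjusted p under 0.05. The same fit gave 0.15 for No NRP over SCS 2 h (limma unadjusted p = 0.305) and 0.21 for HOPE 24 h over No NRP (limma unadjusted p = 0.162).

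The guanylyl cyclase receptors varied less. NPR1, the receptor of both cardiac hormones, had 12.5, 15.3 and 27.4 TPM in pigs 24, 25 and 29 of SCS 2 h, 9.58, 10.3 and 24.5 TPM in pigs 27, 28 and 30 of HOPE 24 h, and 11.7, 18.4 and 19.7 TPM in pigs 31, 33 and 34 of No NRP. In both groups that received NRP, 1 heart stood above the other 2, namely pigs 29 and 30. NPR2, the receptor of the NPPC product, had 12.6, 8.31 and 13.1 TPM in SCS 2 h, 6.49, 8.91 and 12.05 TPM in HOPE 24 h, and 10.6, 16.9 and 13.1 TPM in No NRP, in the same order of pigs. Its lowest heart was pig 27 and its highest pig 33, and all groups overlapped.

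Of the proteases, CORIN, the membrane protease of heart muscle cells, had 2.48, 3.19 and 5.51 TPM in SCS 2 h, 2.20, 3.60 and 6.47 TPM in HOPE 24 h, and 3.56, 1.23 and 3.42 TPM in No NRP. FURIN, the broadly expressed convertase, had 106, 99.6 and 79.7 TPM in SCS 2 h, 68.1, 93.0 and 129 TPM in HOPE 24 h, and 53.5, 95.8 and 60.4 TPM in No NRP. Pig 30 had the highest level of both proteases and of NPPB. Pig 31 had the lowest FURIN and the lowest NPPB, and pig 33 the lowest CORIN.

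The first comparison asked what 24 h of HOPE changed against 2 h of SCS in hearts that had both received NRP. NPPB had the largest difference of the 6 genes, with 45.4 ± 33.7 TPM (SD, n = 3) in HOPE 24 h and 11.1 ± 7.17 TPM in SCS 2 h, a ratio of means of 4.08. Its log2 fold change of log2(TPM + 1) was 1.68 (95% confidence interval 0.0050 to 3.36), at percentile 99.7 of the fold changes of all tested genes. By limma the unadjusted p was 0.0494 and the adjusted p 0.993, and an exact permutation test of the 3 hearts against 3 gave p = 0.2, where 0.1 is the smallest possible. The unadjusted p was above 0.05 in 8 of 18 alternatives: 0.0624 with a pseudocount of 0.1, 0.0941 with no filter on low values, 0.0645 with the mitochondrially encoded genes left out, 0.0553 with limma's moderation run without trend, and 0.132, 0.0986, 0.129 and 0.242 without pigs 24, 25, 28 and 30. The difference thus did not pass adjustment over all tested genes, and its unadjusted p was under 0.05 only in some settings.

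NPPA had a negative log2 fold change that did not pass the test, with 55.7 ± 14.5 TPM (n = 3) in HOPE 24 h and 168 ± 212 TPM in SCS 2 h (log2 fold change -0.67, 95% confidence interval -2.37 to 1.02, limma adjusted p = 0.993). This direction rested on pig 24: without that heart the log2 fold change was 0.44, and without pig 29, the lowest heart, it was -1.61. NPR1 had a log2 fold change of -0.34 (interval -1.20 to 0.52) and NPR2 of -0.29 (interval -0.99 to 0.40). Leaving out single hearts, NPR1 lay between -0.75 without pig 30 and -0.029 without pig 29, with -0.11 without pig 27, and NPR2 between -0.49 without pig 30 and -0.092 without pig 27. With median-of-ratios scaling NPR1 was -0.21 and NPR2 -0.16, and with array weights NPR1 was -0.54. CORIN stood at 0.071 (interval -0.81 to 0.96) and FURIN at -0.013 (interval -0.68 to 0.65), with FURIN turning to 0.13 under median-of-ratios scaling. That scaling moved the median fold change of all genes from -0.12 to 0.00020, so changes of this size cannot be given a direction. Without pig 30, the heart with the low mitochondrially encoded share, the log2 fold changes were -0.75 for NPR1, -0.49 for NPR2, -0.25 for CORIN and -0.24 for FURIN, and limma adjusted p-values stayed between 0.48 and 0.789.

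At an adjusted p under 0.05, limma called 0 of the 6 genes, against 0.0255% of all tested genes. At an unadjusted p under 0.05 it called 1 of 6, NPPB, against 4.97% of all tested genes. Without pig 29 it called 2, NPPA and NPPB, against 3.96%, and without pig 30 it called 0 against 10.7%. The hearts of the groups were separate for 0 of 6, against 9.82% of all tested genes. NPPB and no other member passed an absolute log2 fold change of 1, a size reached by 3.16% of tested genes.

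**Figure D2:**
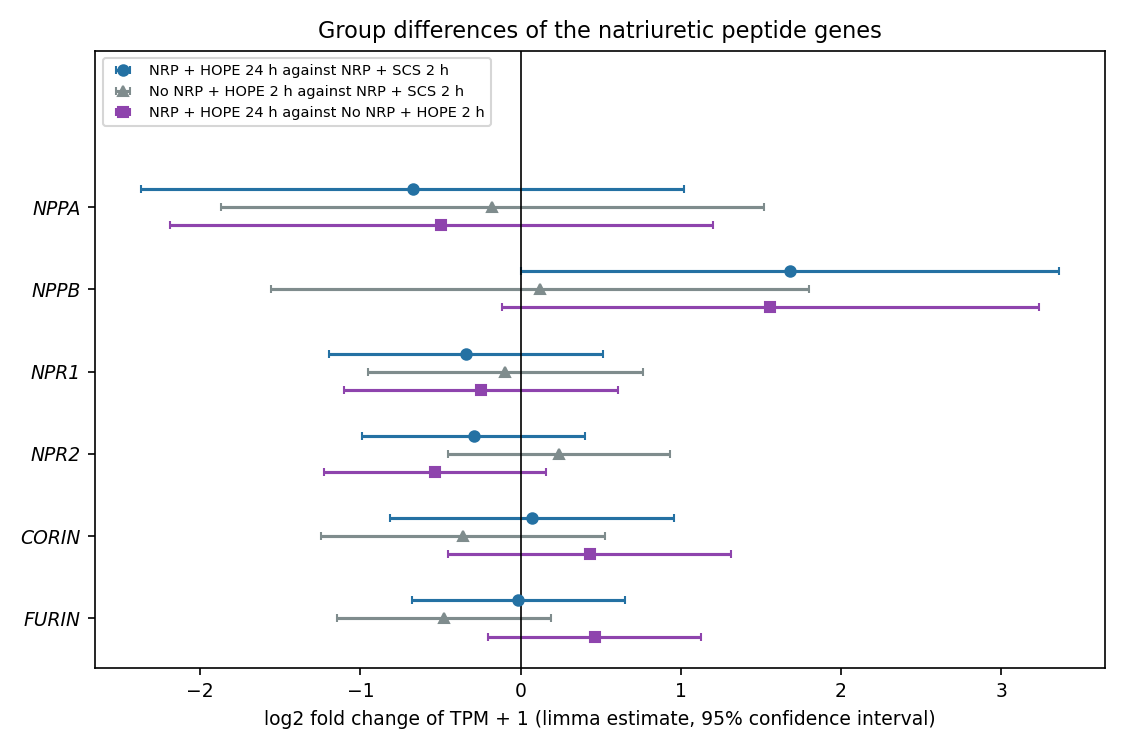
Log2 fold change of TPM + 1 (x axis) for the 6 tested genes in the 3 comparisons, as limma estimates with 95% confidence intervals (3 hearts per group). Only the interval of NPPB for HOPE 24 h against SCS 2 h, 0.0050 to 3.36, lies on 1 side of 0, before adjustment over 11782 genes.

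The second comparison set No NRP against SCS 2 h, hearts stored equally long. NPPB was at 16.1 ± 15.4 TPM (n = 3) against 11.1 ± 7.17 TPM, a log2 fold change of 0.12 (interval -1.56 to 1.80, limma adjusted p = 0.989) that became 1.07 with array weights and -0.63 without pig 33. NPPA was at 95.5 ± 71.3 TPM against 168 ± 212 TPM, a log2 fold change of -0.18 that became 0.93 without pig 24 and 0.43 without pig 31. FURIN had the smallest p of the set, with 69.9 ± 22.7 TPM against 95.2 ± 13.8 TPM and a log2 fold change of -0.48 (interval -1.14 to 0.19, limma unadjusted p = 0.148, adjusted p = 0.821). NPR1 (-0.095), NPR2 (0.24) and CORIN (-0.36) all had intervals that crossed 0. Without single hearts, NPR2 ranged from 0.050 (without pig 25) to 0.39 (without pig 31), CORIN from -0.55 (without pig 24) to -0.023 (without pig 33), FURIN from -0.72 (without pig 33) to -0.31 (without pig 31), and NPR1 changed sign. With array weights NPR2 was 0.50, CORIN -0.69, FURIN -0.22 and NPPA -0.11. At an adjusted p under 0.05, limma called 0 of 6 genes against 0.0509% of all tested genes, and at an unadjusted p under 0.05 it called 0 of 6 against 7.22% (1 without pig 33, FURIN, against 7.43%). The hearts were separate for 0 of 6, against 14.7% of all tested genes, and an absolute log2 fold change over 1 was reached by 0 of 6, against 4.6%.

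The HOPE groups were also set against each other, a comparison that shares its hearts with those above. NPPB was at 45.4 ± 33.7 TPM in HOPE 24 h and 16.1 ± 15.4 TPM in No NRP, a log2 fold change of 1.56 (interval -0.12 to 3.24, limma unadjusted p = 0.0659, adjusted p = 0.852). NPPA (-0.49), NPR1 (-0.25) and NPR2 (-0.53) had negative log2 fold changes and CORIN (0.43) and FURIN (0.46) positive ones, and none passed the test. NPPA ran from -1.10 without pig 31 to 0.081 without pig 34, so its sign rested on that heart. With array weights the log2 fold changes were -0.61 for NPR1, 0.71 for CORIN and 0.14 for FURIN. Without pig 30 they were -0.65 for NPR1, 0.11 for CORIN and 0.23 for FURIN, while NPR1 was -0.018 without pig 27 and CORIN 0.094 without pig 33. With each heart left out in turn, NPR2 lay between -0.73 and -0.33, CORIN between 0.094 and 0.72 and FURIN between 0.23 and 0.71. At an adjusted p under 0.05, limma called 0 of 6 genes against 0.0509% of all tested genes, and at an unadjusted p under 0.05 it called 0 of 6 against 6.01%. That count was 2 with median-of-ratios scaling (NPR2 and FURIN), where the share over all tested genes was 11.7%, and 2 without pig 27 (NPPB and FURIN), where it was 8.38%. It was 1 for NPR2 with quantile normalization (11.4% of all tested genes), array weights (15.9%) and without pig 30 (9.49%), and 1 for NPPB with only the 6 hearts compared (5.05%) and without pig 33 (5.95%). The hearts were separate for 0 of 6, against 7.48% of all tested genes, and an absolute log2 fold change over 1 was reached by 1 of 6, NPPB, against 4.24%.

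**Figure D3:**
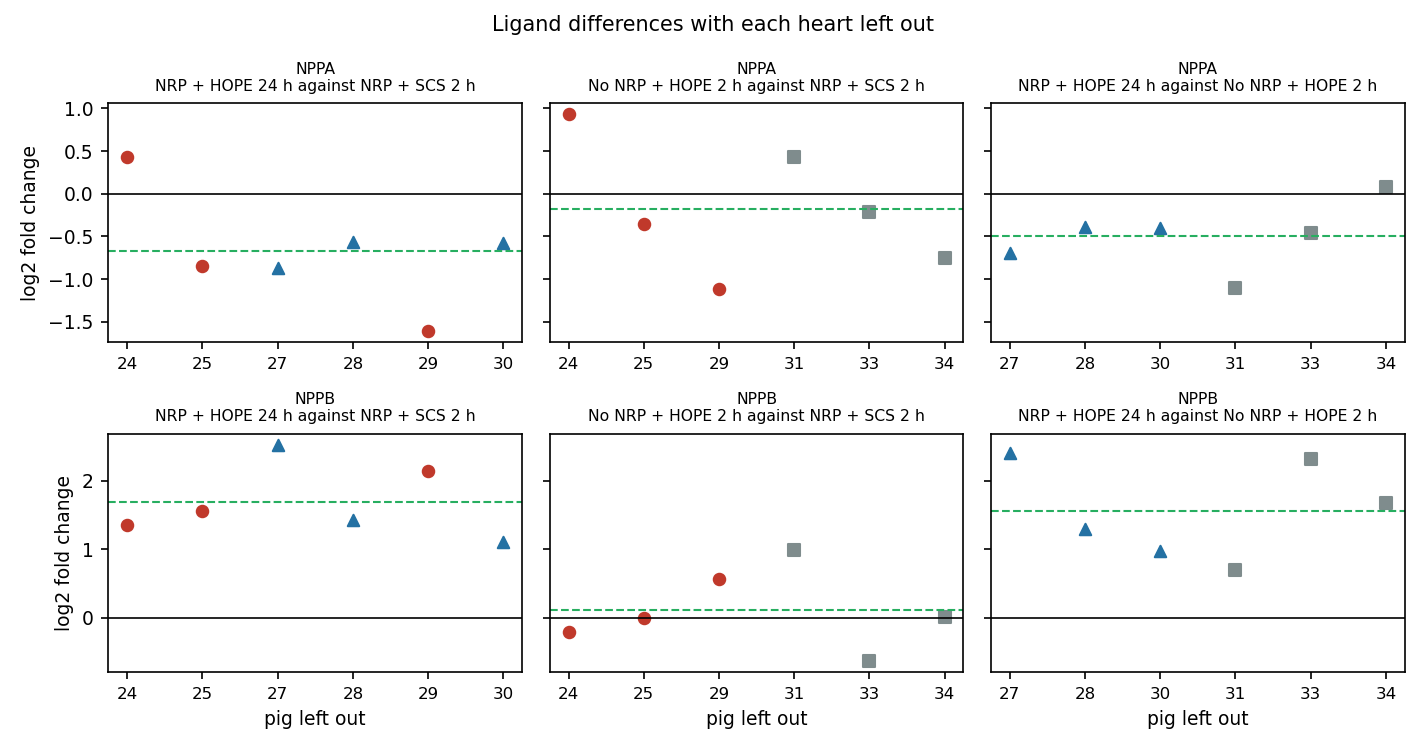
Log2 fold change (y axis) of NPPA (top) and NPPB (bottom) in each comparison when the heart on the x axis is left out; colour and shape give that heart's group, and the dashed line is the value with all 9 hearts. For HOPE 24 h against SCS 2 h, NPPB stays between 1.11 and 2.52, whereas NPPA runs from -1.61 to 0.44 and crosses 0 without pig 24.

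How far single hearts carried the NPPB difference was seen by leaving each out in the same limma fit. For HOPE 24 h against SCS 2 h the log2 fold change was 1.11 without pig 30 (limma adjusted p = 0.595), 1.42 without pig 28 (adjusted p = 1) and 2.52 without pig 27 (adjusted p = 0.571). With the mitochondrially encoded genes left out of the total it was 1.72 (limma adjusted p = 0.606). The sign was positive in all 18 alternatives, and the adjusted p lay between 0.223, with array weights, and 1. Against No NRP, the NPPB log2 fold change was 0.98 without pig 30, 0.69 without pig 31, 0.84 with array weights, 2.32 without pig 33 and 2.40 without pig 27, with 1.56 from all hearts. It was thus lower without the lowest heart of No NRP or the highest of HOPE 24 h, and higher without the highest of No NRP or the lowest of HOPE 24 h.

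Red-cell marker genes were read beside NPPB. Per the paper, the HOPE perfusate held donor packed red cells, whereas SCS hearts were submerged in storage solution. Differences of red-cell genes between HOPE and SCS groups therefore cannot be told apart from this added blood. The 3 hearts with the highest NPPB, pigs 30, 28 and 33, also had the most HBB (beta-globin of red cells), at 420, 339 and 368 TPM. The 3 erythroid markers listed of 4 (HBB, HBM and ALAS2) summed to 74.1 to 430 TPM in HOPE 24 h, 72.3 to 136 TPM in SCS 2 h and 226 to 379 TPM in No NRP, and none was at 0 in any heart. Pearson's r of NPPB with the mean of these markers was 0.54 over the 9 hearts (exact permutation p = 0.133, adjusted p = 0.533 over 60 such relations), Spearman's rho was 0.62 and r fell to 0.45 without pigs 24 and 27. The relation did not pass the test and was not particular to red-cell markers. Macrophage markers had r = 0.52 with NPPB over the 9 hearts. With the group means removed, r with NPPB was 0.93 for endothelial, 0.80 for endocardial, 0.79 for macrophage and 0.68 for erythroid markers, given with no test. Between No NRP and SCS 2 h, HBB had a log2 fold change of 1.52 with no overlap (limma adjusted p = 0.516), where that of NPPB was 0.12. Between HOPE 24 h and SCS 2 h, where NPPB had 1.68, the log2 fold change of HBB was 1.27 (limma adjusted p = 0.943) and that of ALAS2 0.91 (limma adjusted p = 0.993), both with overlap. The part of these markers in the NPPB difference was not tested. Relative to the cardiomyocyte markers of the same heart, a ratio of values of TPM + 1, the NPPB difference between HOPE 24 h and SCS 2 h was 1.88 on the log2 scale (exact permutation p = 0.2, adjusted p = 0.72 over 18 ratio tests).

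The ratio of NPPB to NPPA differed widely from heart to heart. NPPB stood at 1.05 and 1.60 times NPPA, counted as TPM + 1, in pigs 28 and 30, and at 0.84 times in pig 29. In the other 6 hearts it was lower, at 0.148 in pig 27, 0.131 in pig 25, 0.017 in pig 24, 0.106 in pig 31, 0.413 in pig 33 and 0.079 in pig 34. The log2 ratio averaged -0.67 ± 1.83 (SD, n = 3) in HOPE 24 h, -3.03 ± 2.82 in SCS 2 h and -2.72 ± 1.27 in No NRP. The difference of 2.36 between the first pair of groups gave an exact permutation p = 0.2 (adjusted p = 0.72 over 18 ratio tests). It was 0.92 without pig 24 and 3.74 without pig 29. The difference of 0.30 between Group 3 and Group 2 gave an exact permutation p = 1.

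**Figure D4:**
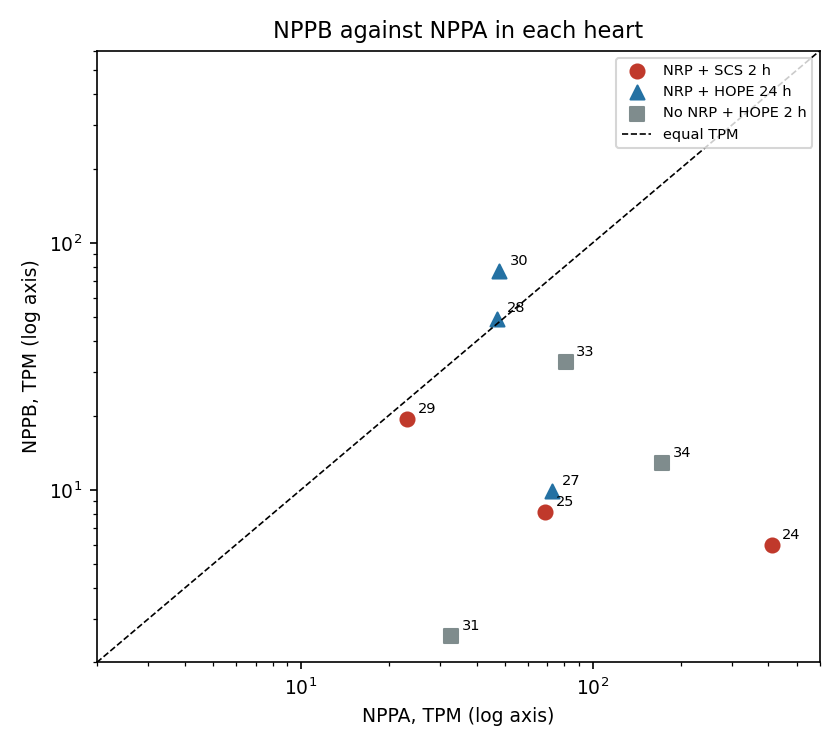
NPPB (y axis) against NPPA (x axis) in TPM on log axes, 1 point per heart with its pig number; the dashed line marks equal TPM. Pigs 28 and 30 of HOPE 24 h lie above the line, pig 29 just under it, and pig 24 of SCS 2 h farthest below, at 411 TPM NPPA and 5.96 TPM NPPB.

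The ligand genes, which are neighbours on chromosome 6 in the RefSeq annotation of Sscrofa11.1, were not detectably correlated across hearts. Pearson's r of their log2 levels was -0.25 over 9 hearts (exact permutation p = 0.527, adjusted p = 0.789 over 15 pairs of genes), Spearman's rho was -0.18, and r was 0.031 without pigs 24 and 29. Of 5236 genes with a symbol and at least 5 TPM on average, NPPB ranked 4719 in likeness to NPPA. The largest r over the pooled hearts was that of NPR1 and NPR2, with r = 0.66 (exact permutation p = 0.0535, adjusted p = 0.592), rho = 0.72 (p = 0.0369, adjusted p = 0.324) and r = 0.74 without pigs 29 and 30. With median-of-ratios scaling its r was 0.29, below the 0.38 of NPPB and FURIN, so that order depended on the scaling. NPPB and FURIN had r = 0.62 (exact permutation p = 0.079, adjusted p = 0.592) and rho = 0.37, and r was 0.043 without pigs 30 and 31, so that relation rested on those hearts. NPPA and its protease CORIN had negative coefficients, with r = -0.47 (exact permutation p = 0.201, adjusted p = 0.730) and rho = -0.70 (p = 0.0433, adjusted p = 0.324). None of the 15 pairs passed adjustment. With the group means removed the order changed, and r was 0.82 for NPPB and NPR2 (0.24 over the pooled hearts), 0.76 for NPPB and NPR1 (0.43 pooled), 0.71 for NPPB and FURIN (0.62 pooled), 0.71 for NPR2 and FURIN (0.17 pooled) and 0.69 for NPR1 and NPR2 (0.66 pooled), given with no test.

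Chamber markers were set beside the ligands after their values had been seen. MYL4, the atrial light chain of myosin, was at 40.4, 55.4 and 4.90 TPM in pigs 24, 25 and 29, at 13.4, 9.81 and 33.7 TPM in pigs 27, 28 and 30, and at 2.81, 21.2 and 39.98 TPM in pigs 31, 33 and 34. The hearts with the least NPPA, pigs 29 and 31, were also those with the least MYL4. Pearson's r of NPPA with MYL4 was 0.70 over 9 hearts (exact permutation p = 0.0342, adjusted p = 0.479 over 14 relations), rho was 0.73, and r was 0.65 without pigs 24 and 29. Over all 9 hearts the other atrial markers listed had r = 0.52 for SLN (exact permutation p = 0.15) and 0.047 for KCNA5 (p = 0.906), and SLN had r = 0.76 without pigs 24 and 29. Among ventricular markers, r with NPPA was 0.34 for HEY2, 0.21 for MYL3, 0.10 for MYH7 and -0.20 for IRX4. Without pigs 24 and 29 it was 0.81, 0.14, 0.32 and -0.38 in the same order. For NPPB and MYL4 r was 0.17. With the mean of the 3 atrial markers listed, whose sum was 16.3 to 71.8 TPM in SCS 2 h, 19.1 to 60.7 TPM in HOPE 24 h and 18.6 to 64.5 TPM in No NRP, NPPA had r = 0.71 (exact permutation p = 0.0264, adjusted p = 0.316 over 60 relations) and r = 0.43 without pigs 34 and 24. The part of atrial-type RNA in the NPPA differences was not tested.

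The receptors were set beside markers of the vessel and chamber lining in the same way, and none of the relations passed adjustment. NPR2 had r = 0.88 with the mean of the endocardial markers TMEM100, NFATC1 and SMOC1 over 9 hearts (exact permutation p = 0.00192, adjusted p = 0.115 over 60 relations), rho = 0.83 and r = 0.85 without pigs 27 and 34. These were the 3 of 6 endocardial markers that were tested. Together with NRG1 and BMX, which were listed but not tested, they summed to 26.1 to 43.4 TPM in HOPE 24 h, 35.2 to 44.0 TPM in SCS 2 h and 34.5 to 60.8 TPM in No NRP. With the 8 endothelial markers NPR2 had r = 0.77 (exact permutation p = 0.014, adjusted p = 0.316) and NPR1 r = 0.77 (p = 0.0167, adjusted p = 0.316). For CORIN the largest r with any marker list was 0.56, with ventricular markers (exact permutation p = 0.119). Endothelial markers had a median log2 fold change of -0.47 for HOPE 24 h against SCS 2 h, 8 of 8 below 0, where the median of all tested genes was -0.12 and 35.9% of them were above 0, and 0 of the 8 had an unadjusted p under 0.05. Relative to them NPR1 differed by 0.13 in that comparison (exact permutation p = 0.8, adjusted p = 1 over 18 ratio tests), in place of -0.34 without that reference, and by 0.0063 without pig 30.

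The genes whose levels followed each member most closely over the 9 hearts were listed by Pearson's r among genes of at least 5 TPM on average, as a description with no test, since picking the highest of so many values gives high r by construction. For NPPB these were JAK2 (r = 0.97), STK10, SF3B6, GPC4 and SMURF1 (each at least 0.94). For NPPA the closest were OVCA2 (r = 0.84), TOP3B, GSTM3, SP2 and PIM1 (0.79), lower than for any other member. FURIN was followed by IL4R (r = 0.98), CCT3, PPP4R1, MAP4K4 and RRS1, and CORIN by ELMOD3 (r = 0.91), DLD, NPTN, RBM38 and DCAF6. NPR1 was followed by ATXN7L3 (r = 0.97), PAQR3, PCDH1, RING1 and SPNS2, and NPR2 by FAM204A (r = 0.97), RASIP1, SLC49A3, ITGB2 and ATP2A3. These genes share libraries and totals with the members.

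Around the members, genes of peptide processing and breakdown, of cyclic GMP signaling, of transcriptional control of NPPA and NPPB, and of the stretch and fetal program were counted in lists drawn up from general knowledge. Of the listed genes, 8 of 10, 13 of 19, 17 of 22 and 10 of 16 were tested, and limma called 0 of them at an adjusted p under 0.05 in every comparison. The median log2 fold changes for HOPE 24 h against SCS 2 h were -0.10, 0.041, -0.18 and 0.043, against -0.12 over all tested genes. At an unadjusted p under 0.05, 0 of the 48 were higher and 3 were lower, or 6.25%, close to the 4.97% of all tested genes.

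Those 3 were NFATC4, MEF2D and DPP4. NFATC4, a calcineurin-dependent transcription factor, had 17.0, 16.4 and 21.0 TPM in pigs 24, 25 and 29 and 4.69, 7.15 and 10.5 TPM in pigs 27, 28 and 30, without overlap. Its log2 fold change was -1.23 (standard error 0.32, limma unadjusted p = 0.00197, adjusted p = 0.387). MEF2D, a muscle transcription factor, had 19.7 ± 7.75 TPM (n = 3) in HOPE 24 h and 32.2 ± 1.49 TPM in SCS 2 h (log2 fold change -0.74, limma adjusted p = 0.965). DPP4, a dipeptidyl peptidase that trims NPPB peptide, had 7.76 ± 1.07 TPM against 14.5 ± 3.92 TPM (log2 fold change -0.79, limma adjusted p = 0.943). In the cyclic GMP list the largest difference was that of GUCY1A1, a subunit of the nitric oxide receptor (log2 fold change 0.48, unadjusted p = 0.224).

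Between No NRP and SCS 2 h, the medians of the 4 lists were -0.14, 0.064, -0.064 and -0.12, against -0.074 over all tested genes, and 2 of the 48 genes had an unadjusted p under 0.05, or 4.17% against 7.22%. ANKRD1, a stretch-responsive protein of the sarcomere, had 1589, 2285 and 3070 TPM in pigs 31, 33 and 34 and 5009, 4632 and 3790 TPM in pigs 24, 25 and 29, without overlap. Its log2 fold change was -0.99 (standard error 0.28, limma unadjusted p = 0.00365, adjusted p = 0.414), while that of NPPB in the same comparison was 0.12. GATA4, a cardiac transcription factor that acts on both ligand genes, had 3.36 ± 0.586 TPM (n = 3) against 7.63 ± 2.10 TPM (log2 fold change -0.97, limma unadjusted p = 0.0483, adjusted p = 0.689). Its relative GATA6 had 31.4 ± 10.8 TPM against 16.9 ± 5.23 TPM (log2 fold change 0.84, limma unadjusted p = 0.0506, adjusted p = 0.690).

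Between HOPE 24 h and No NRP, the medians of the lists were -0.075, -0.14, -0.036 and 0.23, against -0.035 over all tested genes. In the stretch and fetal list 8 of 10 genes had positive log2 fold changes, against 46.1% of all tested genes. Of the 48 genes of the lists, 2 had an unadjusted p under 0.05, both in that list, or 4.17% against 6.01% of all tested genes. ANKRD1 was at 3951 ± 1207 TPM (n = 3) against 2315 ± 741 TPM (log2 fold change 0.77, limma adjusted p = 0.685). ACTC1, cardiac actin, was at 1661 ± 680 TPM against 990 ± 413 TPM (log2 fold change 0.76, limma adjusted p = 0.829). The slow skeletal troponin TNNI1, a fetal isoform, had the largest difference of that list and went the other way (log2 fold change -0.82, limma unadjusted p = 0.157).

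**Figure D5:**
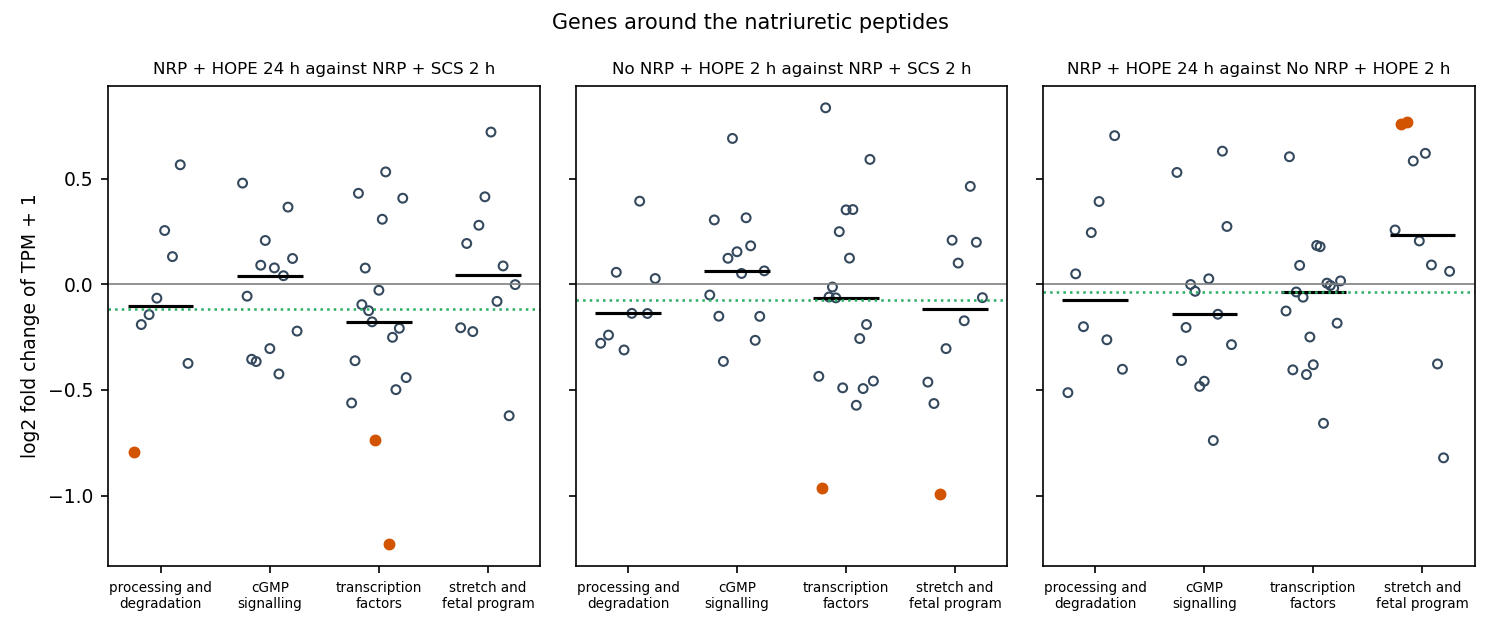
Log2 fold change of TPM + 1 (y axis) of each tested gene in the 4 lists around the members, for the 3 comparisons; filled points have an unadjusted limma p under 0.05, black lines are list medians and the dotted line is the median of all 11782 tested genes. The list medians lie between -0.18 and 0.23, and the lowest point is NFATC4 at -1.23.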

How the data were processed

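The authors deposited TPM values for each heart, made from reads of oligo(dT)-enriched libraries. Per the labels and the submitters' processing notes the tools were bcl2fastq 2.17, Trimmomatic 0.36, STAR 2.5.2b, featureCounts of Subread 1.5.2 and DESeq2, and the genome was the Ensembl Sus scrofa assembly, whose build is not given in the sources used here. Every column sums to 1000000, so depth is unknown and the number of hearts limits the precision; counting intervals are not given. A further 9 value columns matched no labelled heart and were not used. ERCC spike-ins had been added to the RNA before library preparation, and no spike-in scaling was made here.

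Genes that reached 1 TPM in 3 or more of the 9 hearts were fitted as log2(TPM + 1) with limma 3.58.1 in R 4.3.3, with 1 mean per group, all hearts in one fit, eBayes with trend and Benjamini-Hochberg adjustment over all 11782 genes, two-sided. Fold changes on this scale understate those of low genes. The code of the fit was run on simulated data, drawn independently for each gene and heart, with planted changes larger than that of any member. This checks the code only and does not show how the fit performs on these hearts. Ratios and correlations used two-sided exact permutation tests (scipy 1.17.1, Python 3.11.15). The members, lists, tests and naming rule were chosen with earlier results of these data known. The rule names all members, per list the 3 genes with the largest absolute log2 fold change per comparison or an adjusted p under 0.05, and the 5 genes most like each member. Marker genes that are named, such as SLN, MYL3, MYL4, MYH7 and HBB, belong to fixed marker lists. Gene symbols came from the table, and 748 more were added by gene identifier from the reference gene names. Planned ratios with NPR3 were not computed. NPR2 overlaps SPAG8, and CORIN overlaps ATP10D, in the RefSeq annotation of Sscrofa11.1; since the strand setting of the counting is not given, reads of overlapping genes cannot be told apart. Alternatives were array weights (statmod 1.5.0), eBayes with no trend, a fit of the 6 hearts compared, a pseudocount of 0.1, no filter, a filter at a mean of 5 TPM, quantile normalization, median-of-ratios scaling, removal of 13 mitochondrially encoded genes, and each heart left out. Correlations with marker lists and chamber markers were added after the data were seen.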

Additional observations from a re-analysis of the deposited data

How the results depend on the processing

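No member was called at an adjusted p under 0.05 in any comparison under any of the 18 alternatives (CORIN was not tested with a mean of at least 5 TPM), and of 666 recomputed values 55 changed sign, none of them called. The 666 include values that could not move, such as a fold change with a heart of the third group left out. No paired analysis was possible because the pig numbers are not shared between groups. With array weights, whose iteration stopped before its tolerance in some fits, all genes called rose from 3 to 60, from 6 to 94 and from 6 to 14 for HOPE 24 h against SCS 2 h, No NRP against SCS 2 h and HOPE 24 h against No NRP. Signs turned for FURIN for HOPE 24 h against SCS 2 h (median-of-ratios scaling 0.13, quantile normalization 0.079), for NPR1 with No NRP against SCS 2 h (quantile normalization 0.024, array weights 0.070), for the log2 ratio of CORIN over FURIN with a pseudocount of 0.1 (-0.011 for No NRP against SCS 2 h, 0.10 for HOPE 24 h against No NRP), and with median-of-ratios scaling for the correlations of NPPB and NPR2 (-0.15), NPR1 and FURIN (-0.42), NPR2 and FURIN (-0.35) and CORIN and FURIN (-0.13); the cause was not tested. Leaving out each heart gave these ranges where a sign turned. For HOPE 24 h against SCS 2 h they were NPPA -1.61 to 0.44, CORIN -0.25 to 0.36, FURIN -0.24 to 0.21, CORIN over FURIN -0.19 to 0.46, NPPA over cardiomyocyte markers -1.33 to 0.59, NPR1 over endothelial markers -0.10 to 0.40. For No NRP against SCS 2 h they were NPPA -1.11 to 0.93, NPPB -0.63 to 0.99, NPR1 -0.32 to 0.22, NPPB over NPPA -1.13 to 1.69, CORIN over FURIN -0.23 to 0.70, NPPA over cardiomyocyte markers -0.91 to 1.02, NPPB over these -0.60 to 1.01, CORIN over these -0.52 to 0.10, NPR1 over endothelial markers -0.080 to 0.43. For HOPE 24 h against No NRP they were NPPA -1.10 to 0.081, CORIN over FURIN -0.62 to 0.32, NPR1 over endothelial markers -0.17 to 0.15. For correlations they were NPPA with NPPB -0.58 to 0.00093, with NPR1 -0.35 to 0.064, with FURIN -0.11 to 0.39; NPPB with CORIN -0.11 to 0.63; NPR2 with CORIN -0.35 to 0.55, with FURIN -0.015 to 0.32; CORIN with FURIN -0.29 to 0.34. With 3 hearts per group the standard error of a log2 difference was 0.31 for FURIN and 0.79 for NPPA, which limits what can be resolved.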
